A study of Oryza sativa Indica Group with 226 samples.

Results

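The type 2C protein phosphatases (PP2C) of rice were followed here in shoots of dark-grown seedlings, through 64 probe sets of 53 genes on an expression array. A probe set belonged to the group if the array annotation gave it exactly 1 gene, if that gene's symbol or synonym was PP2C followed by digits (a leading Os was ignored), and if its mean over all arrays was at least 4.5 on the log2 scale. At any mean there were 72 such probe sets of 55 genes, and the whole table tested held 32232 of the array's 57381 probe sets. PP2C31 and PP2C61 were represented only below the limit. Just inside it lay a probe set of PP2C75 with a mean of 4.52, and just outside it a second probe set of PP2C62 with a mean of 4.47.

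Protein phosphatases of this class remove phosphate from serine and threonine and need magnesium or manganese. The plant family is divided into clades, and clade A is the best known. In the absence of abscisic acid (ABA), clade A phosphatases hold SnRK2 protein kinases inactive, which in rice are called SAPK. ABA bound to its PYL receptors blocks the phosphatases, the kinases become active, and bZIP transcription factors then switch on dehydrin and late embryogenesis genes. Clade A genes are themselves known as targets of this pathway, so their transcripts are commonly used as a readout of ABA signalling. Outside clade A, PP2C35 (XB15) dephosphorylates the immune receptor XA21.

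Transcript levels were measured on 226 Affymetrix rice arrays. Of these, 220 came from 110 recombinant inbred lines (2 arrays each) bred from a cross between Minghui 63 and Zhenshan 97, which are both indica rice, and 6 came from these parents (3 arrays each). Lines and parents were grown alike and untreated. Seeds spent 48 h in water at 25 °C, germinated at 35 °C, and seedlings then grew for 72 h at 25 °C, always in the dark and at a relative humidity of 85%. The arrays are labelled as biological replicates, so p-values measure the spread between such samples. The study asked how transcript levels vary between the parents and segregate in their lines. The number of arrays limits the precision, and in whole shoots fewer cells of a type and less RNA per cell cannot be told apart.

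Array medians lay between 4.77 and 5.07. Between replicate 1 and replicate 2 of the lines, 92.5% of all tested probe sets shifted (limma, adjusted p under 0.05), so the lines were always compared within replicate number. Line identity was checked with the 1431 probe sets that had a repeatability of at least 0.5. They were thus picked for agreement between a line's 2 arrays, which by itself raises the r of a line with itself. The 2 arrays of a line correlated with a median r of 0.861 (0.676 to 0.928), and 6 lines matched another line better than themselves. All 6 belonged to 11 pairs of lines that were near copies of each other (r from 0.717 to 0.893, against at most 0.510 for any other pair of lines). Counts of probe sets called between the lines, the count of correlated pairs and the mid-parent counts of PP2C05 and PP2C68 are given with and without near-copy lines. The same holds for the r of the genes named as most like PP2C05 and for the clade A index. Other counts of lines against parents were made with all lines only. Of 5 measured shoot markers, all were called lower in Minghui 63, with differences from −2.17 to −0.88, and their mean level was between 10.92 and 10.99 on the Minghui 63 arrays and between 12.15 and 12.23 on the Zhenshan 97 arrays. Of 4 root markers, Lsi1 was called (7.63, 7.50 and 7.51 in Minghui 63, 8.08, 8.28 and 8.28 in Zhenshan 97), IRT2 was not called and went the other way (4.65, 4.46 and 5.96 in Minghui 63, 3.73, 3.32 and 4.82 in Zhenshan 97), and Lsi2 and IRT1 stayed within the range of control probe sets in both parents. Of 4 seed markers, none of the 2 tested was called between the parents by limma (0 also at an unadjusted p under 0.05), and AMY1A and GLUA-1 stayed within the control range. The part of tissue make-up in the differences between the parents was not tested.

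Between the parents, 6 of the 64 PP2C probe sets differed (9.375%, against 8.8% of all tested probe sets, limma, adjusted p under 0.05). PP2C15 and PP2C69 were higher in Minghui 63 (4.01% of all tested probe sets were called in this direction), and PP2C01, PP2C05, PP2C47 and PP2C68 were lower in Minghui 63 (4.79%). In 29 of the 64 (45.3%), the 3 values of one parent lay entirely above those of the other, against 29.6% of all tested probe sets. Of these 29, 21 were higher in Minghui 63 and 8 in Zhenshan 97. The difference was above 0, meaning higher in Minghui 63, for 43 of the 64 probe sets and for 52.9% of all tested probe sets. The median difference was 0.18 over the PP2C probe sets and 0.02 over the table. At an unadjusted p under 0.05 the count was 19, where 23.6% of all tested probe sets passed.

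PP2C05, on chromosome 1, had the lowest adjusted p of the family. It measured 6.12, 6.19 and 6.88 in Minghui 63 and 8.22, 8.36 and 7.97 in Zhenshan 97. Every Minghui 63 array lay more than 1 log2 unit below every Zhenshan 97 array. The difference was −1.79 (SE 0.23, limma, adjusted p = 0.00437), and it passed the test under each of the 13 alternatives tried.

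PP2C68, a clade A gene on chromosome 9 also known as SIPP2C1 and induced by stress, showed the difference of greatest size. It measured 5.17, 4.61 and 4.57 in Minghui 63 and 9.38, 8.45 and 6.14 in Zhenshan 97. In Minghui 63, replicates 2 and 3 lay close to 4.61, the highest mean of a control probe set in that parent. The parents did not overlap, but the Zhenshan 97 arrays were themselves spread over more than 3 log2 units. The difference was −3.21 (SE 0.73, limma, adjusted p = 0.0392). The call was lost in 7 of 12 alternatives, among them every fit without 1 of the Minghui 63 arrays or without Zhenshan 97 replicate 1 or 2.

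PP2C69, also on chromosome 9, was higher in Minghui 63, with 7.26, 7.32 and 7.73 against 6.30, 6.33 and 5.81 in Zhenshan 97. The difference was 1.29 (SE 0.21, limma, adjusted p = 0.0105). PP2C15, on chromosome 2, measured 7.54, 7.46 and 7.66 in Minghui 63 and 6.76, 6.52 and 6.64 in Zhenshan 97. Its difference was 0.91 (SE 0.14, limma, adjusted p = 0.00925). For both genes the parents were clearly separated and the arrays within a parent were close. Both calls were lost with replicate number as a block and in a single fit to all 226 arrays. The latter had no replicate block, so its spread held the shift of the lines between replicate numbers (−0.80 for PP2C15, −0.65 for PP2C69). The part of this shift in the lost calls was not tested.

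PP2C01, on chromosome 1, measured 4.51, 4.72 and 5.17 in Minghui 63 and 5.71, 5.70 and 5.62 in Zhenshan 97. Its difference was −0.88 (SE 0.19, limma, adjusted p = 0.0337), and 6 of 12 alternatives lost the call, among them fits without Minghui 63 replicate 1 or 2 or without any 1 Zhenshan 97 array. PP2C47, on chromosome 5, measured 7.72, 7.68 and 7.71 in Minghui 63 and 8.56, 8.22 and 8.24 in Zhenshan 97. Its difference was −0.64 (SE 0.15, limma, adjusted p = 0.0435). This call was lost when any 1 array of either parent was left out. A second PP2C47 probe set differed by −0.37 with an adjusted p of 0.225. Among those not called, PP2C57 had a difference of 0.60 (limma, adjusted p = 0.0595) and PP2C78 one of 1.02 (adjusted p = 0.0804).

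The clade A genes stood on the other side of 0 from most of the family. Of the 10 clade A genes listed, 7 were measured (PP2C06, PP2C08, PP2C09, PP2C30, PP2C51, PP2C53 and PP2C68), each by 1 probe set with a mean of at least 4.5. Of these 7, 6 had a negative difference, with a median of −1.02 over the 7. Among the other 57 probe sets, 42 had a positive difference and the median was 0.21. PP2C68 was the 1 clade A gene that passed the test. This split is a description, since the choice of genes was made with earlier results of these data known.

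The Zhenshan 97 arrays differed among themselves in these genes. PP2C08 measured 9.10, 7.84 and 5.90 in Zhenshan 97 replicates 1, 2 and 3, and 6.10, 6.13 and 6.18 in Minghui 63. PP2C30 measured 10.28, 9.41 and 6.66 in Zhenshan 97, and 8.63, 6.93 and 6.40 in Minghui 63. PP2C09 measured 9.88, 9.56 and 8.01 in Zhenshan 97, and 8.37, 7.93 and 8.10 in Minghui 63. In all of them Zhenshan 97 replicates 1 and 2 were above the 3 Minghui 63 arrays, and replicate 3 lay among or below these.

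PP2C06, also known as ABIL1, measured 10.27, 9.91 and 9.14 in Zhenshan 97 and 9.29, 9.43 and 9.39 in Minghui 63. PP2C51, known to promote seed germination, measured 6.62, 5.61 and 4.56 in Zhenshan 97 and 5.12, 5.16 and 4.91 in Minghui 63. A second PP2C51 probe set, with a mean of 2.98, was below the limit and had another order. It measured 3.89, 3.26 and 3.96 in Zhenshan 97 and 3.13, 3.06 and 3.20 in Minghui 63. PP2C59, which is not in the clade A list, measured 9.04, 7.35 and 4.71 in Zhenshan 97 and 4.57, 5.48 and 5.43 in Minghui 63. Its Zhenshan 97 arrays had the same order as those of the clade A genes, and it is described with them below. PP2C53, also known as ABIL2, was the exception in clade A, with 7.90, 7.99 and 7.76 in Zhenshan 97 and 8.15, 8.15 and 8.33 in Minghui 63.

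Replicate 1 was the highest and replicate 3 the lowest Zhenshan 97 array in 6 of the 7 clade A genes, in 18 of the other 57 PP2C probe sets and in 20.4% of all tested probe sets. The range over the 3 Zhenshan 97 arrays had a median of 2.06 over the clade A genes (0.23 to 3.62), 0.34 over the other 57 probe sets (0.06 to 4.33, PP2C59 being the widest) and 0.42 over all tested probe sets. PP2C59 was chosen for this pattern, so its values are a description. Zhenshan 97 replicate 1 was above all 220 line arrays in PP2C06, PP2C08, PP2C30, PP2C51 and PP2C68, but not in PP2C09 and PP2C53. Against the highest line array the margin was narrow in PP2C51 (6.62 against 6.59) and wider in PP2C68 (9.38 against 8.64). This was not counted over all tested probe sets. With all 6 parent arrays, the differences of PP2C08 (−1.48, limma, adjusted p = 0.257), PP2C09 (−1.02, adjusted p = 0.231), PP2C30 (−1.46, adjusted p = 0.425) and PP2C59 (−1.87, adjusted p = 0.299) did not pass the test, nor did those of PP2C06 (−0.40, adjusted p = 0.457), PP2C51 (−0.53, adjusted p = 0.567) and PP2C53 (0.33, adjusted p = 0.222).

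**Figure D1:**
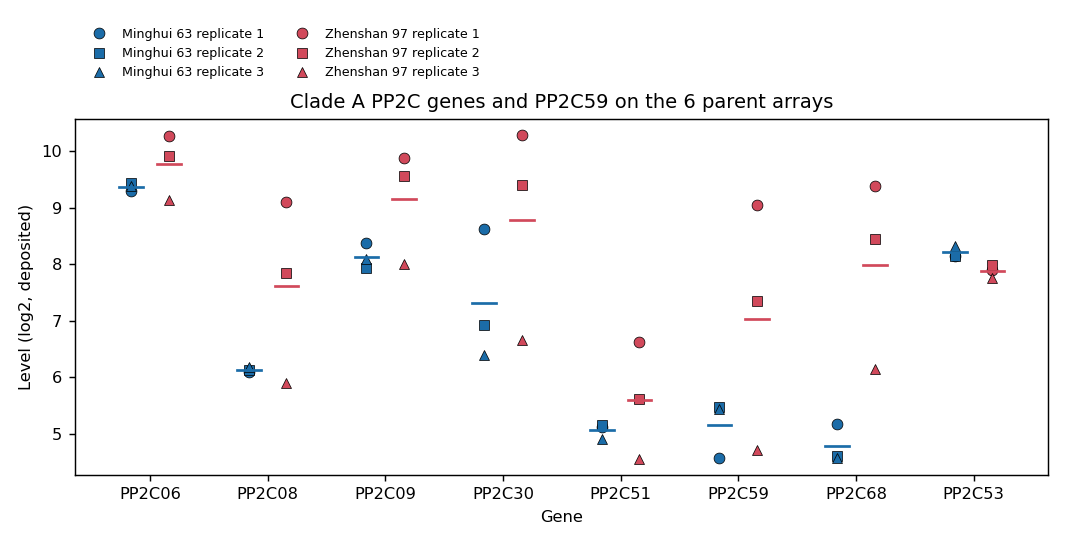
Deposited log2 levels of the 7 measured clade A genes and PP2C59 (horizontal axis) on the 6 parent arrays, with the replicate as the symbol, the parent as the colour and the mean of 3 arrays as a bar. In every gene but PP2C53, Zhenshan 97 replicate 1 is the highest and replicate 3 the lowest of the Zhenshan 97 arrays.

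Without Zhenshan 97 replicate 3, 8 PP2C probe sets were called (9.34% of all tested probe sets were called in that fit). These were PP2C05, PP2C15, PP2C68, PP2C69 and PP2C78 together with PP2C08 (−2.33, limma, adjusted p = 0.0116), PP2C09 (−1.59, adjusted p = 0.0061) and PP2C59 (−3.04, adjusted p = 0.0183). PP2C01 and PP2C47 were not called in it. The difference of PP2C68 became −4.13 (SE 0.32). Without Zhenshan 97 replicate 1 the differences were smaller, at −0.73 for PP2C08, −0.72 for PP2C30, −0.02 for PP2C51, −0.87 for PP2C59 and −2.51 for PP2C68, and none of these 5 was called. The actin 3′ minus 5′ control difference, a measure of RNA and labelling quality, was 1.96, 1.88 and 2.93 on Zhenshan 97 arrays 1, 2 and 3 and between 2.19 and 2.39 on the Minghui 63 arrays, within a range of 0.52 to 6.12 over all arrays. Its part in the split of the Zhenshan 97 arrays was not tested.

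Over the 110 lines, 11 PP2C probe sets of 10 genes varied between lines beyond the spread of a line's 2 arrays (17.2%, against 15.1% of all tested probe sets, moderated F test from limma within replicate number, adjusted p under 0.05). Repeatability, computed as the between-line mean square minus the within-line one over the total of both, is 1 where both arrays of a line give the same value and near 0 where lines differ no more than repeat arrays. Its median was 0.08 over the 64 probe sets and 0.06 over all tested probe sets. It reached 0.5 for 1 PP2C probe set (1.56%, against 4.44% of all tested probe sets). Without the 6 lines that matched another line the count of called probe sets was 10, and without 1 line of each near-copy pair it was 9.

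PP2C05 was that probe set, with a repeatability of 0.708 (limma, adjusted p = 3.02e-17). On the line arrays it ran from 6.86 through a median of 7.88 to 8.56 in replicate 1, and from 6.30 through 7.56 to 8.43 in replicate 2. The line means ran from 6.73 to 8.40, beside parent means of 6.40 and 8.18. They were not spread evenly, with 18 lines between 7.25 and 7.5, 9 lines between 7.5 and 7.75 and 31 lines between 8 and 8.25. No line mean lay below the Minghui 63 mean, and 13 lay above the Zhenshan 97 mean. Of the 110 lines, 80 were above the mid-parent and 30 below it. Without 1 line of each near-copy pair these were 72 and 27. The mid-parent lay between 7.25 and 7.5, below the interval from 7.5 to 7.75 that held 9 lines. A line mean averages 2 replicate numbers, which differed for PP2C05 by −0.31 (replicate 2 minus replicate 1). Whether line and parent arrays share a level was not tested, here or in other counts of lines against parents.

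The genes that tracked PP2C05 over the lines were sought by the correlation of PP2C05 in one replicate number with each other gene in the other replicate number, averaged over both directions, among 18081 probe sets of other genes. The highest was LOC4326490 (mean r 0.62), with 552 annotated genes between it and PP2C05, followed by SPP1, a sucrose phosphate phosphatase gene (0.62, 387 genes between), and LOC4323979 (0.58, 174 genes between). All 3 are on chromosome 1, gene order being that of assembly ASM3414082v1, and all 3 were called lower in Minghui 63, by −3.87, −1.12 and −0.74. Of the 20 most alike probe sets, 19 were on chromosome 1, which held 15.3% of the candidates. Without 1 line of each near-copy pair the 3 gave 0.60, 0.61 and 0.61. These correlations share no array between their members, and their cause was not tested.

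PP2C68 had a repeatability of 0.417 (limma, adjusted p = 1.56e-05). Replicate 1 ran from 3.80 through a median of 5.16 to 7.76, and replicate 2 from 4.08 through 5.75 to 8.64. The lowest line arrays lay below 4.63, the highest mean of a control probe set over all arrays. Line means spanned 4.36 to 7.63, so that no line reached the Zhenshan 97 mean of 7.99, and 3 of the 220 line arrays did. The distribution leaned to the Minghui 63 side of the mid-parent, with 92 lines below it and 18 above it (83 and 16 without near copies). Both the Zhenshan 97 mean and the mid-parent rest on Zhenshan 97 arrays of 9.38, 8.45 and 6.14. The highest line means lay above the last of these arrays. PP2C68 was the 1 clade A gene called between the lines.

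PP2C57, on chromosome 6, had a repeatability of 0.424 (limma, adjusted p = 4.18e-05). It ran from 7.96 through 8.54 to 9.05 in replicate 1 and from 7.16 through 8.17 to 9.43 in replicate 2. Line means from 7.81 to 9.24 passed both parents, with 7 lines below the Zhenshan 97 mean of 7.98 and 17 above the Minghui 63 mean of 8.58. PP2C71, on chromosome 10, had a repeatability of 0.346 and line means from 6.82 to 7.96. Its lines lay high, with 88 of 110 above the mean of the higher parent. A second PP2C71 probe set had a repeatability of 0.09 and was not called.

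The remaining called probe sets had repeatabilities from 0.23 to 0.33. They were PP2C14 (0.29, line means 9.96 to 11.01), PP2C54 (0.27, 7.99 to 9.10, with 95 lines above the higher parent), PP2C48 (0.24), PP2C47 (0.23), PP2C45 (0.26), and 2 probe sets of PP2C75 (0.33 and 0.32). PP2C47 and PP2C48 were not called without the near-copy lines, or without the 6 lines that matched another line. The called PP2C45 probe set lay within the control range in both parents (means 3.98 and 4.22), and 107 of 110 lines were above the higher parent on it. The brighter PP2C45 probe set had a repeatability of 0.00, so the 2 probe sets of this gene disagreed. PP2C05, PP2C47 and PP2C68 were called both between the parents and between the lines, whereas PP2C01, PP2C15 and PP2C69 were called between the parents alone. That the lines of the last 3 vary less than those of the first was not tested.

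**Figure D2:**
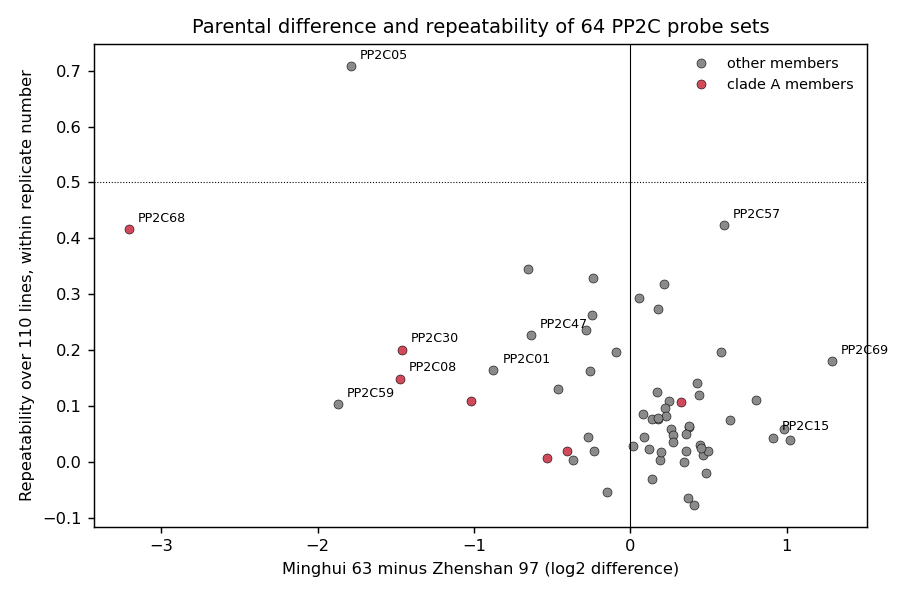
Each point is 1 of the 64 PP2C probe sets, placed by the Minghui 63 minus Zhenshan 97 difference (log2, horizontal) and by repeatability over 110 lines within replicate number (vertical), with clade A in red and a dotted line at 0.5. PP2C05 lies alone above 0.5, PP2C68 and PP2C57 lie near 0.42, and most others lie below 0.2.

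In the other clade A genes the 2 arrays of a line told little about each other. Repeatability was 0.02 for PP2C06, 0.15 for PP2C08, 0.11 for PP2C09, 0.20 for PP2C30, 0.01 for PP2C51 and 0.11 for PP2C53, and 0.10 for PP2C59, none of them called. Some of them varied widely from array to array. The SD between arrays of the same line, after the shift between replicate numbers, had a median of 0.57 over the 7 clade A genes, 0.28 over the other 57 probe sets and 0.31 over all tested probe sets. Within clade A it ran from 0.25 for PP2C53, 0.31 for PP2C06 and 0.34 for PP2C51 to 0.57 for PP2C09 and 0.62 for PP2C08. Over all 64 probe sets the highest were PP2C59 (0.89), a PP2C66 probe set (0.83), PP2C30 (0.73) and PP2C68 (0.69).

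PP2C08 ran from 5.08 through a median of 5.94 to 8.27 in replicate 1 and from 5.03 through 5.91 to 8.99 in replicate 2, and PP2C59 from 3.81 through 4.77 to 9.17 and from 3.95 through 5.12 to 8.89. Most arrays were thus close to the Minghui 63 level of these genes and a few were much higher. PP2C30 ran from 5.19 through 6.89 to 9.48 and from 4.41 through 6.78 to 9.82, and 86 of its 110 line means lay below the lower parent, Minghui 63, and 0 above the higher. For PP2C08, 72 line means lay below the lower parent mean and 1 above the higher. For PP2C06, 106 line means lay below the lower parent mean of 9.37.

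**Figure D3:**
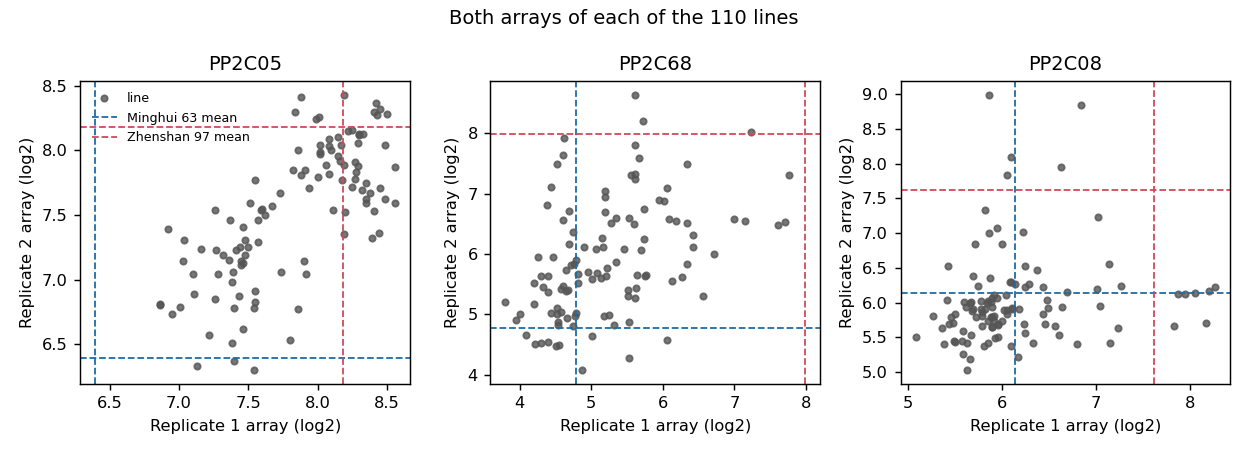
Each point is 1 of the 110 lines, with its replicate 1 array on the horizontal and its replicate 2 array on the vertical axis (log2), and dashed lines at the parent means. PP2C05 shows lines high on both arrays and lines low on both, PP2C68 a looser trend, and PP2C08 lines that are high on 1 array while near 6 on the other.

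Members that varied together were sought in all 2002 pairs of PP2C probe sets from different genes. A pair was counted where Pearson's r over the 110 lines was at least 0.5 in size with the same sign within replicate 1 and within replicate 2. This held for 34 pairs, 1.70% of those examined, against 2.72% of all pairs of tested probe sets. Of the 34 pairs, 32 were positive and 2 negative. Both members of a pair share the array they were read from, with its RNA, labelling and normalization. When one member was read in replicate 1 and the other in replicate 2 of the same line, r lay between −0.11 and 0.18 for the 34 pairs, with a median of 0.01, and no pair of the 2002 reached 0.5. Each of the 34 pairs had an unadjusted permutation p of 1e-05 for Pearson's r and for Spearman's rho, the smallest that 100000 shuffles of the lines can give. The pairs were picked by these same r values, so this p adds no support. Of the 2002 pairs, 959 had an adjusted permutation p under 0.05. Leaving out the 2 lines farthest from the median brought 7 of the 34 pairs below 0.5 in at least 1 replicate number, the lowest to 0.43. Without 1 line of each near-copy pair, 36 pairs were counted.

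The positive pairs joined 24 genes into 4 groups. The group that held clade A had 9 genes, namely PP2C06, PP2C08, PP2C09, PP2C30, PP2C51 and PP2C68 with PP2C59, PP2C12 and PP2C47. PP2C08 and PP2C30 correlated most closely, with r of 0.87 in replicate 1 and 0.81 in replicate 2 (rho 0.80 and 0.75). Across replicate numbers the same pair gave 0.14. PP2C08 and PP2C59 gave 0.91 and 0.76 on the same array (rho 0.74 and 0.56) and 0.11 across. PP2C06 and PP2C30 gave 0.72 and 0.68 (rho 0.71 and 0.67) and 0.10 across. PP2C08 and PP2C59 had most partners, 5 each.

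Of the 21 pairs within clade A, 8 were counted, and the median of the mean r was 0.51, compared with 0.02 over all 2002 pairs. The 15 pairs without PP2C53 ran from 0.46 to 0.87 in replicate 1 and from −0.09 to 0.81 in replicate 2. The lowest was PP2C06 with PP2C09, at 0.74 in replicate 1 (rho 0.69) and −0.09 in replicate 2 (rho −0.06), and PP2C09 with PP2C30 gave 0.81 and 0.30 (rho 0.78 and 0.25). The 6 pairs of PP2C53 ran from −0.01 to 0.23 in replicate 1 and from −0.43 to 0.57 in replicate 2. Across replicate numbers those 15 pairs gave −0.06 to 0.14. PP2C12 entered the group through PP2C47 (0.59 and 0.68, rho 0.52 and 0.76) and PP2C47 through PP2C09 (0.56 and 0.55, rho 0.52 and 0.65). PP2C12 was also the member of both negative pairs, with PP2C26 (−0.58 and −0.72, rho −0.54 and −0.72) and with PP2C28 (−0.51 and −0.57, rho −0.44 and −0.56).

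**Figure D4:**
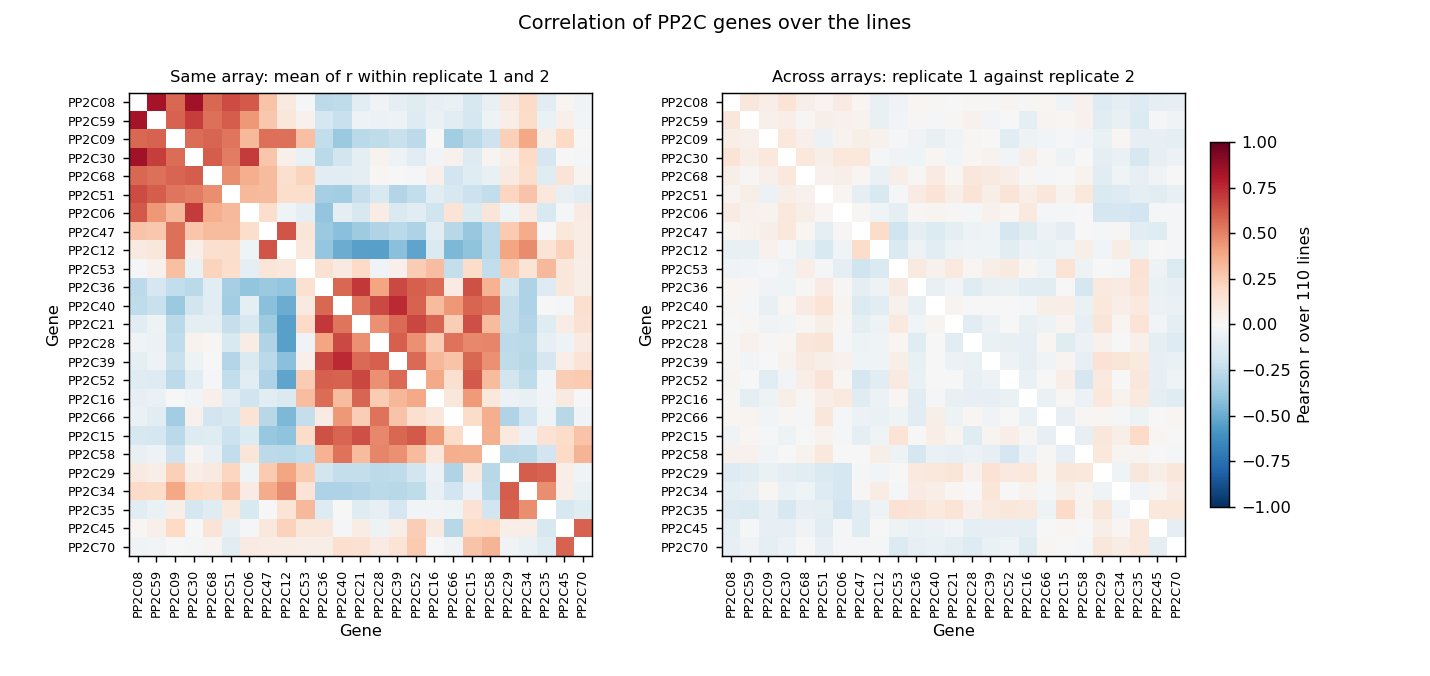
Pearson r over 110 lines for the 24 genes of the correlated groups and PP2C53, on a colour scale from −1 (blue) to 1 (red), with genes in the same order on both axes. The left panel takes both genes from the same array (mean of replicates 1 and 2) and shows 1 red block for the clade A group and 1 for the group of 10 genes, and the right panel takes the genes from different replicate numbers and is pale throughout.

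A group of 10 genes held no clade A gene and consisted of PP2C15, PP2C16, PP2C21, PP2C28, PP2C36, PP2C39, PP2C40, PP2C52, PP2C58 and PP2C66. Its 14 counted pairs had a mean r from 0.51 to 0.74, with PP2C39 and PP2C40 highest (0.77 and 0.72, rho 0.70 and 0.69) and PP2C21 and PP2C36 next (0.74 and 0.68, rho 0.67 and 0.70). PP2C36 and PP2C40 had most partners, 5 each. PP2C28 was paired with 1 probe set of PP2C66 and PP2C58 with another, so PP2C58 is in the group because probe sets were joined by gene. The pair of PP2C58 gave 0.51 and 0.50 (rho 0.45 and 0.51), and 0.44 and 0.48 without the 2 lines farthest from the median. Across replicate numbers the 14 pairs gave −0.11 to 0.07. The mean standardised level of this group moved with the array median, with r of −0.45 in replicate 1 and −0.62 in replicate 2, whereas that of the clade A group gave 0.11 and 0.20. With every array centred on its median, 31 pairs of the 2002 were counted, 28 of them among the 34. The part of the array median in the correlations was not tested.

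PP2C29, PP2C34 (BIPP2C2) and PP2C35 formed a group of 3 through 2 pairs. PP2C29 correlated with PP2C34 (0.62 and 0.58, rho 0.55 and 0.59) and with PP2C35 (0.68 and 0.50, rho 0.67 and 0.48). PP2C45 and PP2C70 formed the last pair (0.58 and 0.59, rho 0.49 and 0.60). The mean standardised level of this pair had r of −0.13 and −0.52 with the array median and of 0.07 and 0.44 with the actin 3′ minus 5′ difference, and that of the group of 3 had 0.01 and 0.29 and 0.01 and 0.21. The part of these measures was not tested.

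Where a gene had several member probe sets, these did not always move together. Of 14 such pairs from 8 genes, 4 had r of at least 0.5 in both replicate numbers, in PP2C07 (0.84 and 0.69), PP2C48 (0.58 and 0.70), PP2C66 (0.55 and 0.87) and PP2C73 (0.74 and 0.96). The probe sets of PP2C45 gave 0.35 and −0.06, and those of PP2C47 gave 0.32 and 0.45. Of 3 PP2C75 probe sets, 2 were called between the lines while the third, the dimmest, had a repeatability of −0.05.

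The clade A genes were set against the ABA pathway through a clade A index, the mean of the 7 standardised levels on an array, computed within replicate number. The index of a line on its replicate 1 array had an r of 0.11 (rho 0.12) with that on its replicate 2 array, and 0.13 without near copies. Of 22 tested pathway genes, 8 had r of at least 0.5 with the index in both replicate numbers, against 0.41% of all tested probe sets. The count was also 8 without near copies and without the lines that matched another line. The pathway list was drawn up with earlier results of these data known, and the index was added after the values had been seen. All correlations with the index compare genes on the same array.

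Of 8 tested ABA-responsive genes, 7 were among these 8. The dehydrin gene Dhn1 gave 0.81 and 0.77, RAB16B 0.75 and 0.80, RAB21 0.77 and 0.69, LEA3 0.71 and 0.58, EM 0.56 and 0.72, RAB16C 0.68 and 0.75 and RAB16D 0.56 and 0.54. The exception was salT, with −0.08 and −0.25. Of 3 transcription factor genes, VP1 passed the limit (0.68 and 0.62), while BZIP23 (0.78 and 0.49) and TRAB1 (0.53 and 0.47) lay above it in replicate 1 alone. Of the 10 SAPK kinase genes, 0 passed it, and the 1 measured receptor gene, PYL11, gave 0.04 and 0.01. Across replicate numbers the 7 responsive genes gave r between −0.03 and 0.15. Root, shoot and seed markers gave r with the index between −0.16 and 0.28, and the array median and the 3′ minus 5′ differences of 3 control genes gave between −0.20 and 0.15.

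**Figure D5:**
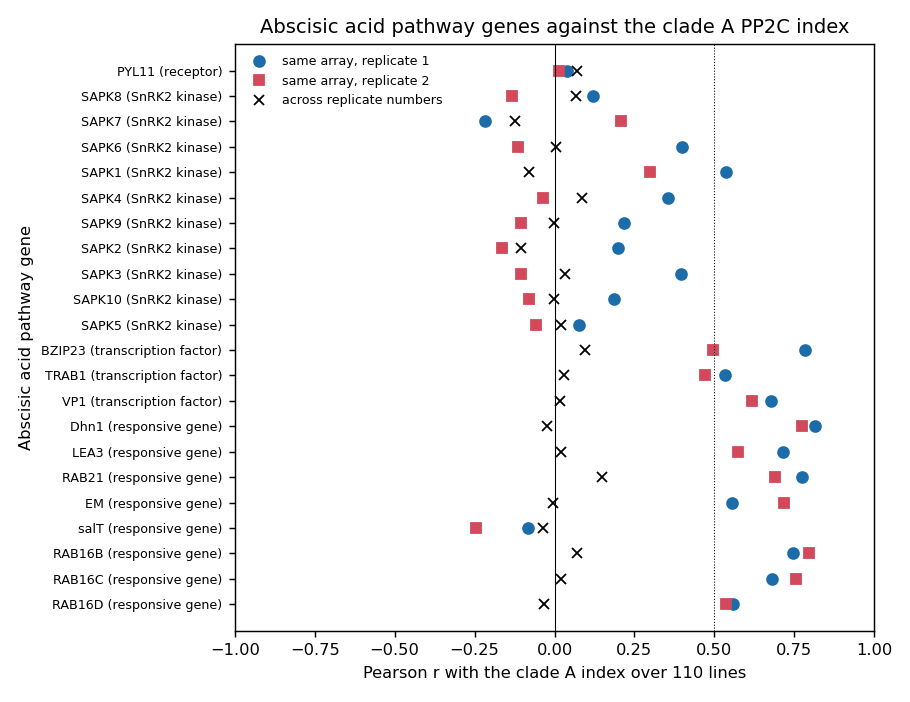
Pearson r over 110 lines (horizontal) between the clade A index and each of 22 tested ABA pathway genes (vertical), within replicate 1 (circles), within replicate 2 (squares) and across replicate numbers (crosses), with a dotted line at 0.5. Responsive genes other than salT lie above 0.5 on the same array and near 0 across arrays, and no SAPK gene passes 0.5 in both.

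In the parents, 6 of the 8 responsive genes were highest in Zhenshan 97 replicate 1 and lowest in replicate 3 among the Zhenshan 97 arrays. The exceptions were EM, highest in replicate 2, and salT, with 13.57, 13.46 and 13.60 in Zhenshan 97 and 13.64, 13.69 and 13.65 in Minghui 63. RAB16C measured 11.93, 9.88 and 7.85 in Zhenshan 97 replicates 1, 2 and 3, and 7.99, 8.34 and 7.43 in Minghui 63. EM measured 10.21, 10.37 and 4.79 in Zhenshan 97, and 5.68, 6.24 and 5.97 in Minghui 63. LEA3 measured 12.64, 12.05 and 11.16 in Zhenshan 97 and 9.97, 10.17 and 9.66 in Minghui 63. It was the 1 responsive gene called (−2.02, limma, adjusted p = 0.0155). The parents did not overlap in LEA3, nor in salT and RAB16D, which were not called. RAB16D measured 11.87, 9.56 and 6.81 in Zhenshan 97 and 5.61, 5.78 and 5.32 in Minghui 63 (−3.84, limma, adjusted p = 0.0760). The median difference of the 8 responsive genes was −1.88.

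The SAPK kinase genes went partly the other way. Of 10 SAPK genes, SAPK5 (0.65, limma, adjusted p = 0.0496), SAPK7 (0.66, adjusted p = 0.0455) and SAPK10 (1.22, adjusted p = 0.0456) were higher in Minghui 63, and SAPK3 (−0.62, adjusted p = 0.0434) was lower. SAPK10 measured 7.98, 8.14 and 8.11 in Minghui 63 and 7.50, 6.79 and 6.27 in Zhenshan 97, so the parents did not overlap. In all, 5 of 22 pathway genes were called between the parents (22.7%, against 8.8% of the table), and without Minghui 63 replicate 1 or Zhenshan 97 replicate 2 the count was 0. Between the lines 6 of 22 were called (27.3%, against 15.1% of the table; 7 without near copies), of which 5 were SAPK genes, with SAPK7 (repeatability 0.48) and SAPK10 (0.37) highest.

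The members also took part in the shift between replicate numbers of the lines. Of 64 probe sets, 56 shifted (87.5%, against 92.5% of the table, limma on paired differences), 19 upward and 37 downward from replicate 1 to replicate 2. Of all tested probe sets, 48.1% shifted upward and 44.5% downward. The differences of the means ran from −1.66 for PP2C21 to 1.31 for PP2C09. PP2C09 had a median of 8.03 over the replicate 1 arrays and 9.42 over the replicate 2 arrays, and PP2C21 had 7.23 and 5.47. PP2C12 shifted by 1.13 and PP2C26 by −1.03. Replicate number in the lines stands for whatever the labels call replicate 1 and 2, and what differed between them was not tested.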

How the data were processed

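Shoot RNA of 110 lines and both parents was hybridised to 226 arrays. Each probe set has 1 deposited log2 value per array, between 1.16 and 14.35. These were made with RMA and the affy package, per the submitters' processing notes. Their versions and settings and any genome build were not given in the sources used here. RMA fits probes across arrays and commonly equalises their distributions, so a level is relative to the array set. Values were used as deposited, and all columns were matched to samples by accession.

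The 187 control probe sets were left out and those with a mean of at least 4.5 over all arrays kept. Of all probe sets, 22436 were annotated to 1 gene, 95 to more than 1 and 34850 to none. All of the first were found in RefSeq's genes for assembly ASM3414082v1, used for symbols, chromosomes and gene order. The control range is that of the 17 Tag probe sets, whose highest mean was 4.61 in Minghui 63 and 4.66 in Zhenshan 97.

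Models were fitted with limma 3.58.1 in R 4.3.3 (with data.table, version 1.17.8), and p-values were Benjamini-Hochberg adjusted over all 32232 tested probe sets. Parents were compared 3 against 3. Lines were compared by a moderated F test with replicate number as a block. Correlations, permutations (100000) and repeatability used Python 3.11.15 with numpy 2.4.6, pandas 2.3.3 and scipy 1.17.1, and figures matplotlib 3.10.9. The fits and the counting of pairs were tested on simulated data. Same-numbered parent arrays deviated from their means with r of −0.32, −0.10 and −0.42. Arrays of different number were not compared, so these values cannot decide whether the numbers pair the parents.

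The members, clade A and pathway lists were chosen with earlier results of these data known. Clade A was listed from general knowledge (the 7 genes given in the text, and PP2C37, PP2C49 and PP2C50). Named were all members called between the parents, the 8 with the highest repeatability, the clade A genes, the members of correlated groups, genes whose probe sets disagree, the 3 probe sets most like PP2C05, and called pathway genes; PP2C59 and the uncalled parental differences were chosen after their values were seen. Alternatives were other limits on the mean (5, 7 or none), centring, the block, one fit to all arrays, an intensity trend, and left-out arrays or lines. The recomputation of the mid-parent counts of PP2C05 and PP2C68, most alike genes and the index without near-copy lines was chosen after seeing the data.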

Additional observations from a re-analysis of the deposited data

How the results depend on the processing

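Between the parents, 6 PP2C probe sets were called, and 4 to 8 under other limits on the mean, centring, an intensity trend or a single fit to all arrays. Leaving out 1 parent array gave 3 to 8. With the replicate block, pairing parent arrays of the same number, 1 was called, PP2C05. The pathway count of 5 became 1 without a filter on low values, 2 with the replicate block, 3 in the fit to all 226 arrays, and 0 to 8 without 1 parent array. Between the lines, the 11 called PP2C probe sets became 7 with a mean of at least 7, where fewer were tested, and 4 with no replicate block. With no replicate block the pathway count of 6 became 2. In the same fit the repeatability of PP2C47 turned to −0.050, of PP2C48 to −0.48, of PP2C71 to −0.36 and of the brighter PP2C75 probe set to −0.20, and PP2C54, PP2C57 (0.00) and PP2C68 (0.24) lost their calls. With a mean of at least 7, 37 PP2C probe sets shifted between replicate numbers, in place of 56. The 34 correlated pairs became 79 in replicate 1 alone, 289 in replicate 2 alone, 65 with a limit of 0.4, 10 with a limit of 0.6, 20 with Spearman's rho and 0 across replicate numbers. Leaving out a replicate number of the lines leaves 1 array per line and no test. Where a count changed otherwise, the cause was not tested. Precision is limited by 3 arrays per parent and 2 per line. PP2C18 and the dimmest probe sets of PP2C45 and PP2C75 lay within the control range in both parents.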
